A study of Drosophila melanogaster with 10 samples.

Results

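The nuclear genes of oxidative phosphorylation were followed over a 12 hour course in yeast-starved flies, complex by complex. Members were all genes whose current symbol starts with ND-, COX, UQCR, ATPsyn or SdhA to SdhD, together with Cyt-c-p, RFeSP and blw, each represented by its brightest probe set. The gene table lists 93 such genes, and 68 of them, out of 10844 genes named on the array, had a probe set that names a single gene. They were 31 genes of complex I, 6 of complex II, 5 of complex III, 11 of complex IV and 15 of complex V. The other 25 were not analysed here, among them the gene of cytochrome c itself (Cyt-c-p), SdhA, UQCR-C1, UQCR-C2 and ND-49, and 3 of the 25 (ATPsynG, COX6B and ND-13B) occur in probe sets that name several genes. Also among the 25 were COX1, COX2 and COX3, which are genes of the mitochondrial genome and not nuclear ones.

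RNA was measured in whole Drosophila melanogaster on 10 Affymetrix arrays, 1 per hour at hours 1, 2, 3, 5, 6, 7, 9, 10, 11 and 12. All 10 arrays come from the group labelled no yeast (NY), larvae moved, early in the third instar, to a diet lacking yeast and never returned to yeast; the course started 4 days after the adults emerged. The labels report too little RNA at hours 4 and 8, and they give no strain, no sex and no number of flies per sample. There was 1 array at each hour and no second array at any. Every p-value below thus sets a fitted change against the scatter of single arrays around the fit, and that scatter may be technical.

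Mitochondria make most cellular ATP by passing electrons from NADH and succinate along a chain of protein complexes in the inner membrane. Complex I takes electrons from NADH and complex II from succinate, complex III passes them to cytochrome c, and complex IV hands them to oxygen. Complexes I, III and IV pump protons, and complex V, the ATP synthase, lets the protons back through a rotary motor to make ATP. In flies the adult flight muscle is especially rich in these complexes. Subunits of complexes I, III, IV and V are encoded partly in the mitochondrial genome, and the members described here are the nuclear-encoded ones.

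In whole-animal RNA the markers of several tissues were present. The summed intensity of 12 muscle genes lay between 15040 at hour 9 and 19480 at hour 1, that of 6 fat body genes between 1375 and 1862, and that of 10 female germline and eggshell genes between 2212 at hour 10 and 6239 at hour 1. In RNA from a whole animal, fewer cells of a type and less RNA per cell cannot be told apart. The array medians lay between 111.1 at hour 10 and 120.0 at hour 3, on the linear intensity scale that dChip gave the authors. An intensity compares one probe set between arrays and does not rank different genes.

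Of the 68 members, 56 passed the limit on brightness that was set over the whole array: 29 of complex I, 3 of complex II, 4 of complex III, 6 of complex IV and 14 of complex V. The 12 that did not pass were COX7C and 11 of the 17 genes named as paralogs of another gene, not always a member, by an added L. Bright probe sets dominate the tested members, since 44 of the 56 belong to the brightest 20% of the 8380 probe sets tested. The first question was whether any of the 56 changed over the course.

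No member passed any of the 3 fits made across all 8380 probe sets with limma. In the linear trend over the hours the smallest adjusted p among members was 0.937 (0.0477% of all tested probe sets passed). In the comparison of hours 7 to 12 with hours 1 to 6 it was 0.607, for COX8 (0.0119% of all passed). In the smooth course, a spline with 3 degrees of freedom, it was 0.9999 (0% of all passed). At an unadjusted p under 0.05, 3 members had a trend against 3.71% of all, 14 had such a p between later and earlier hours against 6.25% of all, and 2, COX8 and ATPsynC, had a smooth course against 1.62% of all. The 3 with a trend were ND-B22, ND-B14.5AL and ATPsyngamma. The 14 were 7 members of complex I, 1 of complex III, 2 of complex IV and 4 of complex V, and all 14 were lower in the later hours, the direction in which 4.69% of all probe sets had such a p. The count of 14 depended on the scaling of the arrays: it was 3 after quantile normalization and 8 after centring each array on its median.

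Most fitted changes were small and pointed down. The trend was below 0 for 50 of 56 members, where 63.4% of all tested probe sets were below 0. This lean was not particular to the members. It was below 0 for 54 of 57 tested mitochondrial ribosomal protein genes and 10 of 11 muscle genes. Among cytosolic ribosomal protein genes 21 of 33 were below 0, and among citrate cycle and pyruvate dehydrogenase genes 5 of 10. The fitted change over the course had a median of -0.124 log2 units over members and -0.041 over all tested probe sets. After median centring 47 members and 49.4% of all probe sets were below 0, and after quantile normalization 44 members and 46.0% of all. Mitochondrial ribosomal protein genes had 46 and 38 of 57 below 0 under these 2 scalings, and muscle genes 7 and 6 of 11. The members' median stayed below 0 under both scalings, at -0.081 and -0.063, where all probe sets had 0.002 and 0.013. Without the array of hour 10 the number of members below 0 was 40 and their median change -0.074. The list of female germline and eggshell genes was also lower late in the course, but not throughout. Of its 10 genes 8 were tested, and 7 of the 8 had a trend below 0. Their median trend was -0.84 and their median difference between later and earlier hours -0.474. Yp1, Yp2, Yp3, Vm26Aa and Vm34Ca had trends of -2.094, -1.842, -1.479, -1.137 and -0.543. The trends of otu, Cp36 and osk were -0.074, -0.015 and 0.108. The means over the 8 genes were 0.893, 0.322 and 0.419 log2 units at hours 1, 3 and 6. At each of these hours the members also lay above their mean as deposited. At hours 5 and 11 the members had 0.063 and 0.065, but the female germline and eggshell genes -0.197 and -0.068. At hour 2 the members had -0.053 and these genes 0.041. At hours 7, 9, 10 and 12 both lay below their mean. The part of the female germline and eggshell genes in the members' values was not tested.

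By complex, the median trend was -0.116 for complex I, -0.091 for complex II, -0.139 for complex III, -0.113 for complex IV and -0.142 for complex V. Under quantile normalization they were -0.037, -0.028, -0.094, -0.073 and -0.082 for complexes I to V. The differences between complexes were not tested. Members below 0 numbered 24 of 29 in complex I, 13 of 14 in complex V and all tested members of complexes II, III and IV. Under quantile normalization they numbered 20 of 29 in complex I, 2 of 3 in complex II and 12 of 14 in complex V, and again all in complexes III and IV. ND-75, ND-20, ND-39, ND-42, SdhC and ATPsynF were the 6 whose sign turned to above 0 under quantile normalization, and ND-75, ND-20 and ND-42 turned after median centring as well. The 6 members with a fitted change above 0 were ND-51, ND-18, ND-51L1, ND-SGDH, ND-20L and ATPsynCF6L, at 0.014 to 0.094.

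**Figure D1:**
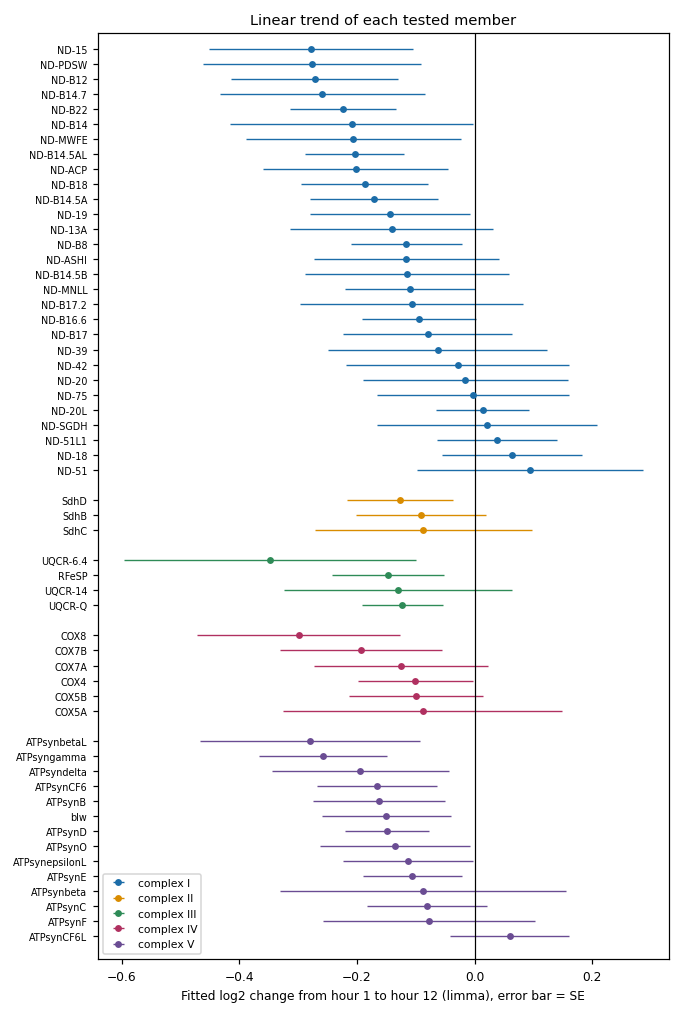
Fitted log2 change from hour 1 to hour 12 of each of the 56 tested members (horizontal axis, points), with the standard error of the limma fit as bars, grouped by complex from I at the top to V at the bottom. Points range from -0.348 for UQCR-6.4 to 0.094 for ND-51, 50 of them are below 0, and none passed the adjusted threshold.

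The later hours were also compared with the earlier hours directly. The difference was below 0 for 52 of 56 members (63.4% of all tested probe sets), with a median of -0.124 log2 units over members and -0.033 over all. It was below 0 for 54 of 57 mitochondrial ribosomal protein genes and 10 of 11 muscle genes as well. Cytosolic ribosomal protein genes had 26 of 33 below 0, and citrate cycle and pyruvate dehydrogenase genes 6 of 10. By complex the median differences were -0.122, -0.108, -0.111, -0.147 and -0.115 for complexes I to V. After quantile normalization the difference was below 0 for 46 members and 46.7% of all probe sets, with medians of -0.061 over members and 0.008 over all, and of -0.048, -0.030, -0.067, -0.111 and -0.090 for complexes I to V. After median centring it was below 0 for 51 members and 53.6% of all, with medians of -0.100 and -0.009. For 7 members all 5 later values lay below all 5 earlier values (1.25% of all tested probe sets): ND-B22, ND-B12, SdhD, RFeSP, COX8, ATPsyngamma and ATPsynCF6. No member had all later values above the earlier ones (0.239% of all). The count of 7 was 2 after median centring, ND-B22 and RFeSP, and 1 after quantile normalization, COX8.

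The members varied from array to array, many of them in the same direction. The mean over the 56 members, taken relative to each gene's own mean over the 10 arrays, was 0.093, -0.053, 0.073, 0.063 and 0.148 log2 units at hours 1, 2, 3, 5 and 6. It was then -0.026, -0.117, -0.240, 0.065 and -0.006 at hours 7, 9, 10, 11 and 12. The highest mean was thus that of hour 6 and the lowest that of hour 10, and the next array was back above the mean. All tested probe sets together had -0.069 at hour 10 and 0.034 at hour 6.

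**Figure D2:**
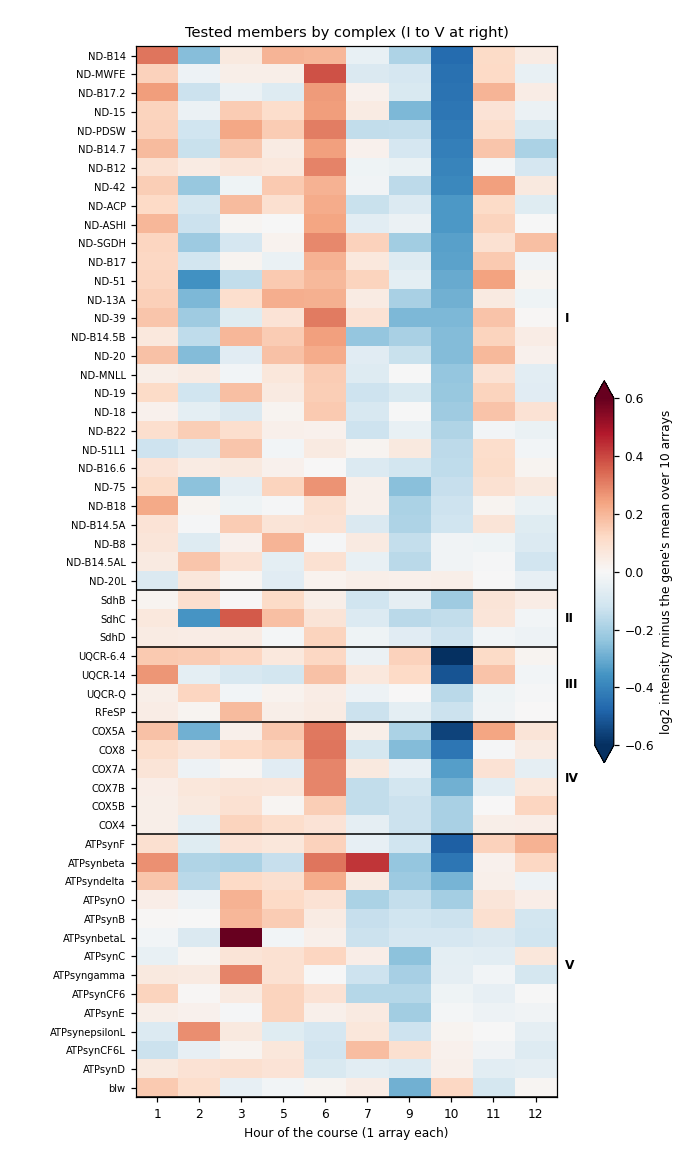
Each row is 1 of the 56 tested members, grouped by complex (I to V, at right) and ordered within a complex by the value at hour 10; each column is the array of 1 hour, and colour gives log2 intensity minus the gene's mean over the 10 arrays, with values beyond 0.6 at the end of the scale. The column of hour 10 is blue for nearly every member of complexes I to IV, at a mean of -0.265 in complex I and -0.333 in complex IV, and paler in complex V, at -0.114; under quantile normalization complex II is at 0.033 there.

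The spread of a member over the 10 arrays, as the SD of its log2 values, had a median of 0.155 over the 56 members and 0.128 over all tested probe sets. It ran from 0.051 for the paralog ND-20L to 0.309 for UQCR-6.4. The median spread was 0.176 in complex I, 0.103 in complex II, 0.158 in complex III, 0.159 in complex IV and 0.127 in complex V. A typical subunit of complexes I, III and IV thus varied more between arrays than the typical probe set, and one of complexes II and V did not.

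Hour 10 carried the lowest value of 36 of the 56 members, 64.3%, against 22.7% of all tested probe sets. Hour 9 carried the lowest value of 11 more (10.4% of all). Hour 6 carried the highest value of 23 members (18.8% of all). Brighter probe sets were more often lowest at hour 10 whatever their gene: in the brightest 20% of tested probe sets, which hold 44 of the 56 members, the share was 31.9%, and in the dimmest 20% it was 17.0%. After quantile normalization 20 members (35.7%) were lowest at hour 10 against 11.6% of all, and after median centring 29 (51.8%) against 15.7%. The members' share was above that of all probe sets under each of the 3 scalings. At hour 3 the scalings differed: no member was lowest there as deposited or after median centring, and 14 (25.0%) were after quantile normalization, when 30.4% of all probe sets were lowest at hour 3. The count highest at hour 6 was 16 after quantile normalization and 21 after median centring (14.0% and 17.6% of all).

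**Figure D3:**
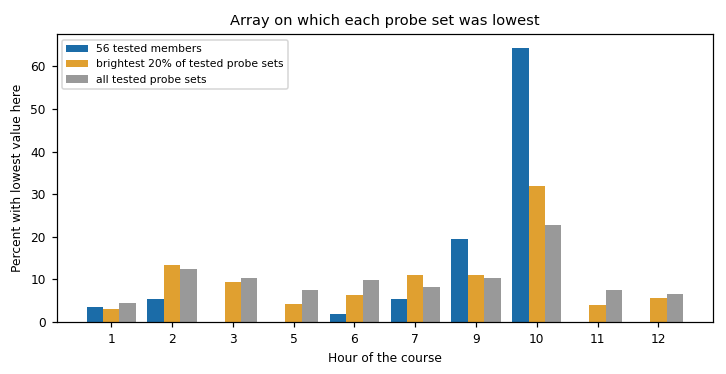
Percent of probe sets whose lowest intensity of the 10 arrays was at each hour, for the 56 tested members, for the brightest 20% of tested probe sets and for all tested probe sets. At hour 10 the bars stand at 64.3%, 31.9% and 22.7%; at hours 3, 5, 11 and 12 no member was lowest on the deposited scale, whereas 14 were at hour 3 and 3 at hour 12 under quantile normalization.

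From one array to the next, the largest median step of the members came after hour 10. From hour 9 to hour 10, 42 of the 56 members stepped down, as did 56.3% of all tested probe sets. From hour 10 to hour 11, 47 stepped up (59.0% of all), with a median step of 0.299 log2 units over members and 0.042 over all. From hour 6 to hour 7, 48 stepped down (56.7% of all), with a median of -0.172. Because hour 10 was singled out for its values, these figures describe the arrays and carry no test.

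Complex I, the NADH dehydrogenase, supplied most of the members. Its core holds the flavin and the iron-sulfur clusters that carry electrons, and 3 nuclear core subunits were measured: ND-75, ND-51 and ND-20. ND-75, an iron-sulfur subunit, lay between 468.1 at hour 9 and 671.2 at hour 6 with a median of 574.2, and its fitted change was -0.003 ± 0.163 (SE, n = 10 arrays; limma, adjusted p = 0.9989), with the sign turned to 0.098 under quantile normalization. ND-51, the subunit that binds NADH, lay between 479.6 at hour 2 and 729.2 at hour 11 with a median of 649.8, and changed by 0.094 ± 0.192 (limma, adjusted p = 0.964). ND-20, a further iron-sulfur subunit, had a fitted change of -0.016. Under quantile normalization ND-51 had 0.206 and ND-20 0.093. None of the 3 core subunits was lowest at hour 10: ND-51 and ND-20 were lowest at hour 2 and ND-75 at hour 9, and all 3 lay below their own mean at hour 10. These hours turned with the scaling: all 3 were lowest at hour 3 under quantile normalization, with ND-75 above its mean at hour 10, at 0.047, and all 3 were lowest at hour 2 after median centring.

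The 23 accessory subunits of complex I surround that core and are needed for its assembly and stability. Of these, 20 were lowest at hour 10, at a mean of -0.297, and 13 were highest at hour 6, at a mean of 0.197. The 3 core subunits had -0.233 at hour 10 and their lowest mean, -0.290, at hour 2, where the accessory subunits had -0.091. The median trend was -0.141 over the accessory subunits and -0.003 over the core ones. Under quantile normalization 10 of the 23 accessory subunits were lowest at hour 10 and 7 at hour 3, their mean at hour 10 was -0.151 with -0.045 for the core ones, and the median trends were -0.043 and 0.098. After median centring 16 of the 23 were lowest at hour 10. The difference between 23 and 3 genes measured on the same arrays was not tested.

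ND-B22, an accessory subunit of the membrane arm, had the smallest p of complex I in both the trend and the comparison of later with earlier hours. It read 998.9, 1057, 960.4, 1076 and 1060 at hours 7, 9, 10, 11 and 12, against 1169, 1207, 1166, 1111 and 1107 at hours 1, 2, 3, 5 and 6. The 5 later values lay below the 5 earlier ones. The later mean was 1030 ± 48.75 and the earlier mean 1152 ± 42.57 (SD, n = 5 arrays each), which gave a log2 difference of -0.162 ± 0.056 (SE; limma, adjusted p = 0.688).

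ND-B12, also of the membrane arm, read 239.0, 236.7, 184.8, 241.2 and 226.5 in the later hours and 259.4, 251.2, 255.4, 253.6 and 298.9 in the earlier ones. Its ranges did not overlap either, and hour 10 and hour 6 were its extremes. The difference was -0.229 ± 0.084 (limma, adjusted p = 0.719). ND-PDSW, a further membrane arm subunit, had a later mean of 614.1 ± 78.21 and an earlier mean of 745.6 ± 79.57 (SD, n = 5 arrays each), but its ranges overlapped, with 501.3 to 720.8 later and 619.2 to 831.3 earlier. Its difference of -0.283 ± 0.105 did not pass (limma, adjusted p = 0.724).

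Relative to the median of the other 9 arrays, the array of hour 10 gave 69.5% for ND-PDSW, 69.7% for ND-B14, 70.0% for ND-15 and 71.7% for ND-MWFE. At the other end it gave 99.2% for ND-B8 and 102% for the paralog ND-20L. ND-ACP, the mitochondrial acyl carrier protein that is built into complex I, stood at 73.6%. For ND-MNLL a second probe set was present. Its means were 990.2 on the brighter probe set, used here, and 924.5 on the other, and both were lowest at hour 10, at 841.2 and 760.8.

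Complex II, succinate dehydrogenase, joins the citrate cycle to the chain. 3 of its 6 members were bright enough to test, SdhB, the iron-sulfur subunit, and the membrane anchors SdhC and SdhD. SdhB lay between 720.7 at hour 10 and 903.5 at hour 5, with a median of 850.8 and a trend of -0.091 ± 0.111 (SE, n = 10 arrays; limma, adjusted p = 0.938). SdhC ranged more widely, from 458.0 at hour 2 to 755.7 at hour 3. Its trend was -0.087 ± 0.184 (limma, adjusted p = 0.964), and 0.001 under quantile normalization.

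SdhD had the smallest spread of the 3 across the arrays. Its later values were 475.7, 462.2, 445.3, 480.1 and 474.9, against 502.4, 500.0, 501.8, 480.5 and 531.6 in the earlier hours. The highest later value, 480.1, lay just under the lowest earlier value, 480.5, and the difference was -0.106 ± 0.056 (limma, adjusted p = 0.816). As a group the 3 members stood at -0.162 at hour 10, but at 0.033 under quantile normalization, so the direction of complex II at hour 10 turns with the scaling. The SD between the 3 members at hour 10 was 0.046.

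Complex III, the cytochrome bc1 complex, stood lowest of all the complexes at hour 10, at a mean of -0.417 over 4 tested members, -0.330 under quantile normalization. The value rests mainly on UQCR-6.4, a small accessory subunit. Its intensities were 1669, 1665, 1637, 1564 and 1630 at hours 1, 2, 3, 5 and 6, then 1459, 1649, 823.6, 1621 and 1512 at hours 7, 9, 10, 11 and 12. A single array thus stood apart, at 50.5% of the median of the other 9, and no other array was under 1459. The trend was -0.348 ± 0.248 (SE, n = 10 arrays; limma, adjusted p = 0.937), and -0.090 without the array of hour 10.

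UQCR-14, a small subunit that faces the matrix, was also low on the array of hour 10, with 152.9 against 202.9 to 263.1 on the other 9, or 67.0% of their median. Its trend was -0.130 ± 0.194, and 0.033 without that array. UQCR-Q, another small accessory subunit, ran from 2960 at hour 10 to 3625 at hour 2 with a median of 3309, and its hour 10 value was 89.1% of the median of the others. It had a trend of -0.123 ± 0.069 (limma, adjusted p = 0.937).

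RFeSP is the Rieske iron-sulfur protein that performs the electron transfer at the heart of complex III. It read 1055, 1107, 1056, 1139 and 1155 in the later hours and 1191, 1166, 1318, 1181 and 1194 in the earlier ones. The ranges did not overlap, and the lowest arrays were those of hour 7, at 1055, and hour 10, at 1056. The later mean was 1103 ± 46.15 and the earlier mean 1210 ± 61.08 (SD, n = 5 arrays each), a difference of -0.134 ± 0.056 (SE; limma, adjusted p = 0.777).

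Complex IV, cytochrome c oxidase, passes electrons to oxygen. All 6 tested subunits, COX4, COX5A, COX5B, COX7A, COX7B and COX8, had their lowest value at hour 10, and 5 of the 6 their highest at hour 6. After quantile normalization 5 of the 6 were lowest at hour 10 and all 6 highest at hour 6. These subunits are wrapped around the catalytic core, whose COX1, COX2 and COX3 genes have no probe set named here. Over hours 6, 7, 9, 10 and 11 the mean of the 6 ran 0.243, -0.060, -0.144, -0.333 and 0.049.

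COX8 had the smallest later against earlier p of all members, and is a small membrane subunit. Its later values were 1302, 1171, 1038, 1396 and 1449, against 1507, 1474, 1521, 1539 and 1752 in the earlier hours. The ranges did not overlap. The later mean was 1271 ± 167.7 and the earlier mean 1559 ± 110.8 (SD, n = 5 arrays each), and the log2 difference was -0.302 ± 0.092 (SE; limma, adjusted p = 0.607; unadjusted 0.00723).

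COX7B was similar in shape, with 1277, 1308, 1156, 1350 and 1477 later and 1454, 1479, 1490, 1485 and 1728 earlier. Only the value of hour 12, 1477, reached into the earlier range, and the difference was -0.219 ± 0.074 (limma, adjusted p = 0.681). COX5A, a matrix-side subunit, had the widest spread of the 6, with 957.0, 695.4, 865.2, 947.6 and 1057 at hours 1 to 6, then 870.0, 743.7, 576.1, 1000 and 894.7 at hours 7 to 12. Hour 10 gave 64.4% of the median of the other arrays, and hour 2 was the next lowest. Its trend of -0.088 ± 0.237 became 0.093 without the array of hour 10.

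COX4, which takes part in the regulation of the enzyme by ATP in mammals, had the smallest spread of the 6 across the arrays. It lay between 2233 at hour 10 and 2797 at hour 3 with a median of 2617, and its trend was -0.101 ± 0.098 (SE, n = 10 arrays; limma, adjusted p = 0.937). At hour 10 it had 85.3% of the median of the other 9 arrays, and COX5B 85.2%.

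**Figure D4:**
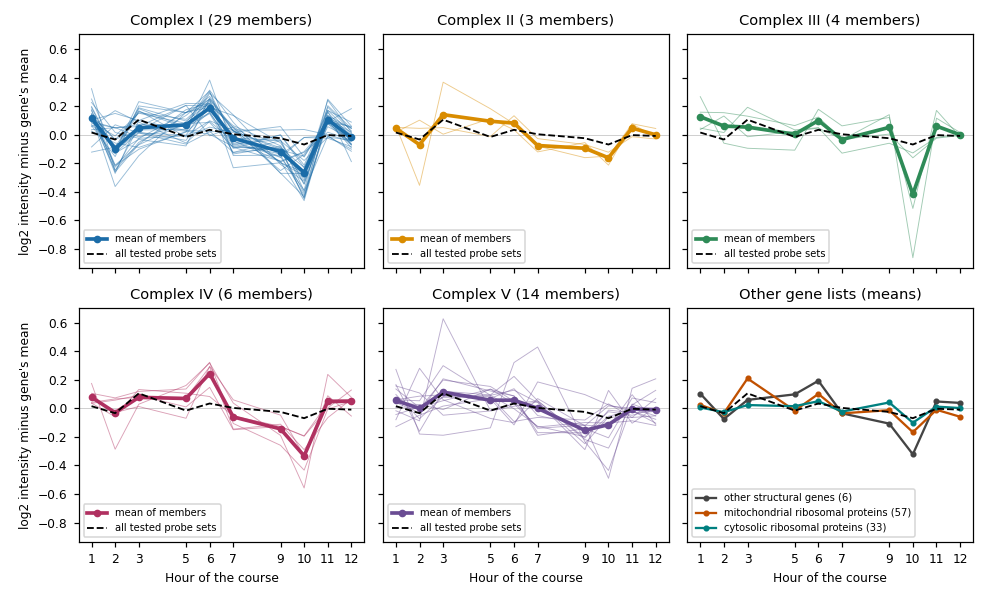
Log2 intensity minus each gene's mean over the 10 arrays (vertical axis) by hour, with thin lines for single members, thick lines with points for the mean of a complex and a dashed line for the mean of all tested probe sets; the last panel gives the means of 3 other gene lists. Complexes I, III and IV have their lowest mean at hour 10, at -0.265, -0.417 and -0.333, complex V at hour 9, at -0.154, and complex II at hour 10 at -0.162, which is 0.033 under quantile normalization.

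Complex V, the ATP synthase, had its lowest mean at hour 9 under all 3 scalings. Of its 14 tested members 4 were lowest at hour 10 and 6 at hour 9, and its mean was -0.154 at hour 9 and -0.114 at hour 10. Under quantile normalization the means were -0.105 and -0.043, with 4 members lowest at hour 9 and 2 at hour 10. From hour 10 to hour 11, 7 of its 14 members stepped up, with a median step of 0.006, where 27 of 29 members of complex I stepped up with a median of 0.397. The difference between complexes was not tested, since their members share the same 10 arrays.

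The catalytic head is built of alpha and beta subunits. blw (bellwether), the alpha subunit, read 3628, 3506, 3147, 3213 and 3287 at hours 1 to 6, then 3357, 2663, 3550, 3027 and 3276 at hours 7 to 12. Hour 9 was the lowest array and hour 10 the one next to the highest, so the 2 neighbouring arrays lay at opposite ends. Its trend was -0.150 ± 0.110 (SE, n = 10 arrays; limma, adjusted p = 0.937). ATPsynbeta, the catalytic beta subunit, had a dim probe set that ran from 131.5 at hour 10 to 239.4 at hour 7 with a median of 171.2. Its later mean was 179.4 ± 41.58 and its earlier mean 182.3 ± 33.15 (SD, n = 5 arrays each).

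The central stalk turns inside the head. ATPsyngamma, the shaft of that rotor, read 1441, 1370, 1513, 1554 and 1463 in the later hours and 1639, 1631, 1934, 1675 and 1569 in the earlier ones. The ranges did not overlap, and hour 9 was the lowest and hour 3 the highest. The later mean was 1468 ± 70.44 and the earlier mean 1690 ± 141.7 (SD, n = 5 arrays each), a difference of -0.200 ± 0.065 (SE; limma, adjusted p = 0.662). ATPsyndelta, another stalk subunit, was lowest at hour 10 with 637.3, or 79.5% of the median of the other arrays.

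ATPsynC forms the membrane ring that the proton flow turns. It lay between 2327 at hour 9 and 3017 at hour 6 with a median of 2813, and at hour 10 it read 2650. Its second probe set, much dimmer with a mean of 122.9, was lowest at hour 9 as well, at 103.3. ATPsynE, a small membrane subunit, was lowest at hour 9 with 2230, where the other 9 arrays gave 2523 to 2828.

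The peripheral stalk holds the head still. ATPsynCF6, coupling factor 6, read 1216, 1215, 1346, 1323 and 1367 later and 1503, 1373, 1420, 1501 and 1453 earlier, without overlap, and its difference was -0.166 ± 0.056 (limma, adjusted p = 0.681). ATPsynB, a long stalk subunit, had a later mean of 1464 ± 105.3 and an earlier mean of 1637 ± 103.4 (SD, n = 5 arrays each) with overlapping ranges, and a difference of -0.162 ± 0.065 (limma, adjusted p = 0.758). ATPsynD ran from 2255 at hour 6 to 2567 at hour 3 and had 106% of the median of the other arrays at hour 10.

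ATPsynF, a membrane subunit, was the member of complex V that went lowest at hour 10. It read 1002 there, and 1295 to 1624 on the other 9 arrays, which is 67.3% of their median. The 2 highest values, 1551 and 1624, came from the next 2 arrays. Its trend was -0.077 ± 0.180, and 0.014 under quantile normalization.

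**Figure D5:**
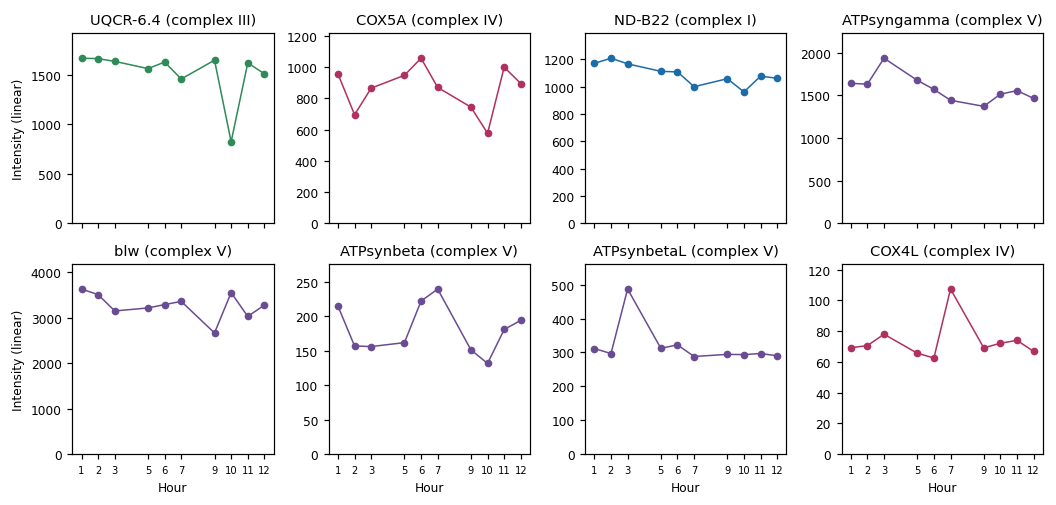
Linear intensity by hour of 8 members, each on its own axis from 0. UQCR-6.4 reads 823.6 and COX5A 576.1 at hour 10, ND-B22 and ATPsyngamma lie lower at hours 7 to 12 than at hours 1 to 6, blw has its low of 2663 at hour 9 and 3550 at hour 10, ATPsynbeta peaks at 239.4 at hour 7, and the paralogs ATPsynbetaL and COX4L each have 1 high array, 487.0 at hour 3 and 107.4 at hour 7.

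Of the 17 paralogs, 6 were bright enough to test, and 3 of these 6 had a trend below 0, with a median of -0.050 over the 6. The other 50 tested members had 47 below 0 and a median of -0.126. At hour 10 the 6 paralogs had a mean of -0.034 and the other 50 a mean of -0.264. These differences were not tested, and the paralogs were mostly dimmer. Apart from ATPsynbetaL (mean intensity 319.3), they lay between 100.3 (ATPsynCF6L) and 228.1 (ND-20L). The brightest group of tested probe sets, from 291.6 up, held 44 members. Over all probe sets of that group the median at hour 10 was -0.108, against -0.015 in the dimmest group. ND-B14.5AL lay within 144.2 (hour 9) and 181.0 (hour 2) and had a trend of -0.204 ± 0.084 (SE, n = 10 arrays; limma, adjusted p = 0.937; unadjusted 0.0327), in the direction in which 2.39% of all probe sets had an unadjusted p under 0.05. ND-20L, ND-51L1 and ATPsynCF6L had their highest values at hours 2, 3 and 7, within 214.8 to 239.2, 121.1 to 151.6 and 91.57 to 113.8. ATPsynepsilonL was highest at hour 2 with 182.8, where the other arrays gave 138.3 to 157.8.

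ATPsynbetaL had the most isolated single array among tested paralogs. It read 487.0 at hour 3, where 30.8% of all tested probe sets were highest, and 288.0 to 322.4 on the other 9 arrays. Its trend of -0.280 ± 0.187 was -0.084 without the array of hour 3. ATPsynbeta itself was at 156.0 at hour 3, among its lowest values.

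The 11 untested paralogs were dim, and a floor of 57.2 was applied before taking logs, under which levels have no order. SdhAL, SdhCL, UQCR-14L and COX7AL lay under it on all 10 arrays, and their highest readings were 36.1 (hour 5), 36.87 (hour 3), 50.04 (hour 10) and 36.21 (hour 7). Of the other 7, COX4L, ATPsynGL, SdhBL and ND-51L2 were highest on the array of hour 7. COX4L had 107.4 there and 62.55 to 78.03 elsewhere, ATPsynGL 71.99, SdhBL 72.89 and ND-51L2 68.07. COX5BL (88.96), ND-24L (87.23) and COX6AL2 (67.98) were highest at hour 3. Of all tested probe sets, 8.29% were highest at hour 7 and 30.8% at hour 3. COX7C, the 1 untested member that is no named paralog, was highest at hour 7 with 64.75. The sum over 16 testis genes was 4732 at hour 7 and 2043 to 2292 on the other arrays. Of these, Mst84Dd had 753.8 at hour 7 against 119.3 to 130.2 elsewhere, and dj had 130.0 against 10.42 to 13.81. The list was not raised throughout. Of the 8 tested testis genes 6 were highest at hour 7, among them Mst98Ca at 124% of the median of the other arrays. The other tested ones, aly and sa, had 104% and 98.9% there. can and comr, under the floor on every array, had 92.9% and 84.3%. The part of testis RNA in the paralogs' values at hour 7 was not tested.

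Structural genes of the chain whose symbols fall outside the rule were Cyt-c1, cype, levy, sun, ox and Neb-cGP, all bright enough to test. They had a median trend of -0.179, with 5 of 6 below 0, and 5 of 6 were lowest at hour 10, the exception being levy at hour 9. Neb-cGP had 576.0 at hour 10, 64.7% of the median of the other arrays. sun, the epsilon subunit of the ATP synthase, had 268.4, or 66.9%. Cyt-c1, the cytochrome of complex III, had 885.1, or 80.7%, and cype, a complex IV subunit, 2413, or 91.1%. No gene of the list passed any of the limma fits, and levy was the 1 with an unadjusted p under 0.05 in later against earlier hours.

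A list drawn up for the citrate cycle and pyruvate dehydrogenase held 10 tested genes. Of these 10, 5 were below 0 in the trend, the median was -0.001, and 1, Idh, was lowest at hour 10. Their mean was lowest at hour 2, at -0.235, with -0.204 and -0.181 for hours 9 and 10. The members had -0.053, -0.117 and -0.240 at hours 2, 9 and 10, and the difference between the lists was not tested. Among them mAcon1, the mitochondrial aconitase, was lowest at hour 9 with 1185 and highest at hour 7 with 1902. The 3 core subunits of complex I shared with this list a low mean at hour 2, -0.290.

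Of 6 tested carriers and pores of the inner and outer membranes, 3 were lowest at hour 9 and 1 at hour 10, and their median trend was -0.008. sesB, the main ADP/ATP carrier, lay between 3783 at hour 9 and 4892 at hour 7. The 5 tested assembly factors had a median of 0.020 and 1 lowest at hour 10, Cox17. Of the 3 tested regulators, TFAM, which packages mitochondrial DNA, had 663.1 at hour 3 and 369.9 to 441.6 on the other arrays. Of all tested probe sets, 30.8% were highest at hour 3. mtSSB was lowest at hour 10 with 122.2, and PolG1 at hour 2 with 151.9. The median over the 3 regulators was -0.247. No gene of the citrate cycle, carrier, assembly and regulator lists passed any of the limma fits. At an unadjusted p under 0.05 none had a trend, and later against earlier hours gave 1 citrate cycle gene, 1 carrier, 0 assembly factors and 1 regulator, all lower in the later hours (4.69% of all probe sets in that direction).

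The 57 tested mitochondrial ribosomal protein genes had a mean of -0.167 there, with 28 lowest at hour 10 and 22 highest at hour 6, and a median trend of -0.105. The 33 tested cytosolic ribosomal protein genes had -0.101, with 15 lowest at hour 10. These are 49.1% and 45.5% of the lists, beside the 22.7% of all probe sets and 31.9% of the brightest 20%. Under quantile normalization 13 and 10 were lowest at hour 10 (22.8% and 30.3%, against 11.6% of all). After median centring 20 and 6 were (35.1% and 18.2%, against 15.7% of all), and 15 of the cytosolic genes were then lowest at hour 3. Under quantile normalization the means were -0.094 and -0.071, against -0.119 for the members. Muscle genes had their lowest sum at hour 9, 15040, with 16750 at hour 10, and 5 of 11 tested were lowest at hour 9 and 3 at hour 10. On the measure used for the members, the 11 muscle genes had a mean of -0.241 at hour 10, where the members had -0.240. At hours 6, 7 and 9 the muscle genes had 0.153, 0.144 and -0.272, and the members 0.148, -0.026 and -0.117. The part of muscle RNA in the members' values was not tested. All 4 tested neuron markers were lowest at hour 9.

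Properties of the array of hour 10 are given here beside these values. It had the lowest median of the 10 arrays, 111.1, and the lowest mean intensity, 197.8 against 203.3 to 221.5. The ratio of 3' to 5' control probe sets was 1.84 for actin, within the 1.80 to 2.56 of the other arrays, 4.77 for GAPDH, the highest of the 10, and 2.94 for eIF-4a, the lowest. The summed intensity of the 10 female germline and eggshell genes was also lowest on this array, at 2212. Of the 8 of them tested, 2 were lowest there (25.0%, against 22.7% of all tested probe sets). The part of these properties, and of these genes, in the members' low values at hour 10 was not tested. With 1 array at hour 10, the hour and the array cannot be told apart.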

How the data were processed

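Whole flies of the yeast-free group were measured on 10 Affymetrix arrays after Trizol extraction, per the labels' protocols. The authors normalized the arrays with dChip by an invariant set of probes and deposited linear intensities, per the labels; the sources used here give no version of it. Array medians still differ in these values, so a shift common to many probe sets can remain. The number of arrays limits the precision. Of 14010 probe sets, 44 were controls, and the platform annotation named 1 gene for 12443, several for 327 and none for 1196. Symbols were updated by Entrez identifier in the Release 6 gene table, which held 12394. No build is named in the files, so no coordinates are given, and no sequence was read.

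Intensities under the 20th percentile (57.2) were set to it before log2, which understates changes of dim genes. Probe sets with a mean log2 at or above the 40th percentile of those that are not controls, an intensity of 93.8, were tested: 8380, of 6822 genes. limma (lmFit, eBayes with an intensity trend, Benjamini-Hochberg over all 8380 at 0.05, two-sided) fitted a slope on the hour, printed over the 11 hours from hour 1 to hour 12; hours 7 to 12 minus hours 1 to 6; and a natural spline with 3 degrees of freedom. The fits were tested on simulated data. Lists are described by counts and medians, without a test.

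The main alternatives were quantile normalization, median centring, other floors and filters, other variance models and leaving out arrays. The members and lists were chosen with earlier results of these data known. Named members were, in each complex, the 3 with the smallest p of the trend and of later against earlier hours, the 5 with the most distant single array, a fixed set (blw, ATPsynbeta, ATPsynC, Cyt-c-p, RFeSP, SdhA, SdhB, UQCR-C1, UQCR-C2, COX4, COX5A, ND-75, ND-51) and the paralogs; others named here were chosen after their values were seen. R 4.3.3, limma 3.58.1, Python 3.11.15, pandas 2.3.3 and matplotlib 3.10.9 were used.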

Additional observations from a re-analysis of the deposited data

Results flagged for a closer look

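Each gene's 10 values, and the mean of each complex, were checked for a highest or lowest array whose gap to its neighbour exceeded 0.466 of the whole range, Dixon's limit for 10 values. Of 74 series checked 12 passed. Chance gives about 1 in 20 for independent values, but these series share the same 10 arrays, and a series at the floor on 9 arrays passes by construction, so the count is not read against that share. Low single arrays at hour 10 were those of UQCR-6.4 (823.6), UQCR-14 (152.9), ATPsynF (1002) and the mean of complex III (-0.417 log2 units), which contains UQCR-6.4 and UQCR-14. Low single arrays at hour 9 were those of ATPsynC (2327) and ATPsynE (2230). High single arrays at hour 7 were those of COX4L (107.4), ATPsynGL (71.99) and COX7C (64.75). High single arrays at hour 3 were those of ATPsynbetaL (487.0) and COX6AL2 (67.98), and at hour 2 that of ATPsynepsilonL (182.8). COX7C, ATPsynGL and COX6AL2 lay at or under the floor of 57.2 on 7, 9 and 9 arrays.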

How the results depend on the processing

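No member passed any of the 3 fits under any alternative tried, and the lowest adjusted p of a member's trend was 0.666. No paired analysis was possible because all arrays belong to 1 group with 1 array per hour. Quantile normalization gave -0.119 for all members at hour 10 (-0.240 as deposited), -0.123 for complex I (-0.265), 0.033 for complex II (-0.162), 20 members lowest at hour 10 (36), and 1 member with all later values below all earlier ones (7; 2 with median centring). The cause was not tested. Leaving out 1 array each time, the last count was 7 to 13 (highest without hour 2), members below 0 in the trend 40 to 54, in later minus earlier 48 to 54, members lowest at hour 10 36 to 38, and unadjusted later against earlier p under 0.05 7 to 21. Median trends were -0.182 to -0.074 for all members, -0.200 to -0.053 for complex I, -0.147 to -0.045 for II, -0.201 to -0.085 for III, -0.195 to -0.045 for IV and -0.201 to -0.100 for V, smallest without hour 10, or without hour 9 for V. Without hours 9 and 10 together, an alternative chosen after seeing the data, as were all settings for the lowest and highest hour, 36 members were below 0 (57.5% of all), with medians of -0.035 (all members) and -0.026 (all probe sets), and 4 had such a p. With the course split after hour 5 or after hour 7 in place of hour 6, such p numbered 3 and 5.

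Among the members followed through every alternative, trends whose sign turned, all far from the threshold, were ND-75 (0.098 quantile, 0.040 median centring, 0.0022 with array order, 0.129 without hours 9 and 10), SdhC (0.0015 quantile, 0.0060 without both), and without both hours ATPsynC (0.0028), ATPsynbeta (0.141), COX5A (0.177), ND-20L (-0.0081) and UQCR-14 (0.016). Over all 56 members, ND-20 (0.093), ND-39 (0.035), ND-42 (0.083) and ATPsynF (0.014) turned too under quantile normalization, as did ND-20 (0.028) and ND-42 (0.015) under median centring. Leaving out 1 array gave -0.129 to 0.074 for ND-75, -0.198 to 0.069 for ATPsynbeta, -0.252 to 0.093 for COX5A, -0.236 to 0.033 for UQCR-14, -0.285 to 0.038 for SdhC, -0.071 to 0.216 for ND-51, -0.034 to 0.103 for ND-51L1, -0.041 to 0.051 for ND-20L, -0.0080 to 0.128 for ATPsynCF6L and -0.207 to 0.0052 for ATPsynepsilonL. Over all probe sets the trend called 4: 5 after quantile normalization, 1 with an offset, 2 with array order, 0 with no filter, unmoderated or without hours 9 and 10, and 0 to 2 leaving out 1 array. The later against earlier fit called 1: 3 with the stricter filter or quantile normalization, 2 with median centring or the mean of a gene's probe sets, 0 with no filter, unmoderated, with either other split or without hours 9 and 10, and 0 to 2 leaving out 1 array. The smooth course called 0: 4 with a quadratic curve and 6 with a 24 hour cosine.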
